A study of Mus musculus with 20 samples.

Results

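The mitochondrial ribosomal protein genes are described here across BV-2 cells, an immortalised mouse microglial line. They were taken as every row of the deposited count table that maps to a protein-coding mouse gene whose symbol starts with Mrpl or Mrps followed by a digit. This gave 78 genes of 56941 in the table, 49 with an Mrpl symbol and 29 with an Mrps symbol, and all 78 had reads in every one of the 20 libraries and passed the filter on low counts. The rule used names only and no measured value.

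The series asks, by its title, about RGS10 and migration of BV-2 cells. RGS10 is a regulator of G-protein signalling that is abundant in microglia. Wild-type cells and cells labelled as RGS10 knockout were each given vehicle or interferon gamma (IFNγ, 10 ng/mL) for 48 h, and poly(A)-enriched RNA was sequenced from 5 libraries in each of the 4 groups. Replicates 1 to 3 of each group belong to batch 1 in the labels, replicate 4 to batch 2 and replicate 5 to batch 3. The groups are therefore wild-type with vehicle, wild-type with IFNγ, knockout with vehicle and knockout with IFNγ; all were grown in DMEM with serum and an antibiotic-antimycotic mix. The sources used here do not give how the knockout was made or whether it is 1 clone. A difference between the lines therefore cannot be told apart from a difference between separately grown cell populations. The labels call the replicates biological without naming separate cultures. The spread behind each p-value is that among these libraries and may be technical.

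Mitochondria keep their own ribosome, which translates the few proteins encoded by mitochondrial DNA, all of them core subunits of the respiratory chain and ATP synthase. Its RNA comes from mitochondrial DNA, while its proteins are encoded in the nucleus, made in the cytosol and imported. Some of these proteins have counterparts in bacterial ribosomes and others are found only in the mitochondrial ribosome. The large subunit forms peptide bonds and is tethered to the inner membrane near its exit tunnel, and the small subunit reads the messenger RNA. In macrophages and microglia, IFNγ drives an activated state in which energy metabolism is known to shift.

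The 20 libraries held between 15866749 and 29157740 counts. Values below are CPM, counts set to a fixed library total, on library sizes scaled by the trimmed mean of M-values (TMM), and a gene is called when its Benjamini-Hochberg adjusted p over 13755 tested genes was under 0.05 in edgeR's quasi-likelihood test with batch as a term. The 4 IFNγ libraries of batches 2 and 3 stand apart: their TMM factors were 0.635 and 0.764 (wild-type) and 0.892 and 0.879 (knockout), against 1.01 to 1.12 in the other libraries. Malat1, a nuclear long non-coding RNA, took 955 to 1514 CPM of their total counts, against 51.4 to 386 CPM elsewhere. The part of these libraries in the results was not tested, so each comparison is given by batch and without them. All 10 microglia and macrophage markers were above 1 CPM in every group, with summed levels of 3030 to 3480 CPM (wild-type, vehicle), 4220 to 4520 CPM (wild-type, IFNγ), 2750 to 3350 CPM (knockout, vehicle) and 3520 to 4430 CPM (knockout, IFNγ). Of 24 markers of neurons, astrocytes, oligodendrocytes, endothelium, lymphocytes and fibroblasts, Aqp4 and Mog, of astrocytes and oligodendrocytes, had no read at all, and the summed level was 34.8 to 57.1, 44.5 to 61.7, 241 to 413 and 34.5 to 233 CPM in the same order of groups. Most of that sum was Kdr, a receptor of endothelial growth factor. In bulk RNA, fewer cells of a type and less RNA per cell cannot be told apart.

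Rgs10 itself was at 55.1, 59.9, 64.5, 73.0 and 62.7 CPM in the wild-type vehicle libraries and at 30.3, 25.6, 28.2, 34.6 and 22.6 CPM in the knockout vehicle libraries, in order of replicate. With IFNγ it was at 23.3, 22.2, 23.7, 49.97 and 28.7 CPM in wild-type and at 21.1, 17.8, 17.1, 50.52 and 15.5 CPM in knockout libraries. Under vehicle the lines did not overlap and Rgs10 was lower in the knockout by 1.17 ± 0.17 on the log2 scale (SE, adjusted p = 3.2e-05, edgeR), whereas under IFNγ they overlapped (adjusted p = 0.13). Only knockout replicate 4 reached the wild-type levels under IFNγ. Without the IFNγ libraries of batches 2 and 3, Rgs10 was called lower in the knockout under IFNγ (-0.28, adjusted p = 0.0307). Reads from a disrupted gene can persist, and the position of the edit is not given in the sources used here. Replicate 4 of both IFNγ groups had the highest Rgs10 of its group. Of 228 genes at least 3 log2 units apart between the lines in batch 1 under both treatments, 92.1% lay nearer the knockout level in knockout IFNγ replicate 4 and 12.3% did so in wild-type IFNγ replicate 4.

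Summed over the 78 genes, the level was 4218 ± 649 CPM (SD, n = 5) in wild-type vehicle libraries and 3185 ± 160 CPM in wild-type IFNγ libraries. In the knockout it was 4481 ± 254 CPM with vehicle and 3576 ± 647 CPM with IFNγ. The wild-type groups did not overlap, at 3511 to 5040 CPM against 3020 to 3444 CPM. The knockout groups overlapped, at 4104 to 4783 CPM against 2514 to 4192 CPM. Large-subunit (Mrpl) symbols summed to means of 2805, 2121, 2967 and 2368 CPM, and small-subunit (Mrps) symbols to 1413, 1064, 1514 and 1208 CPM, in the order wild-type vehicle, wild-type IFNγ, knockout vehicle, knockout IFNγ. Both sums were therefore lower with IFNγ in both lines. Over the 20 libraries, the median Pearson correlation between 2 of these genes on the log2 CPM scale was 0.47, and 82.5% of 3003 pairs were above 0. The points share libraries, groups and scaling, so this describes the data and is not tested.

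**Figure D1:**
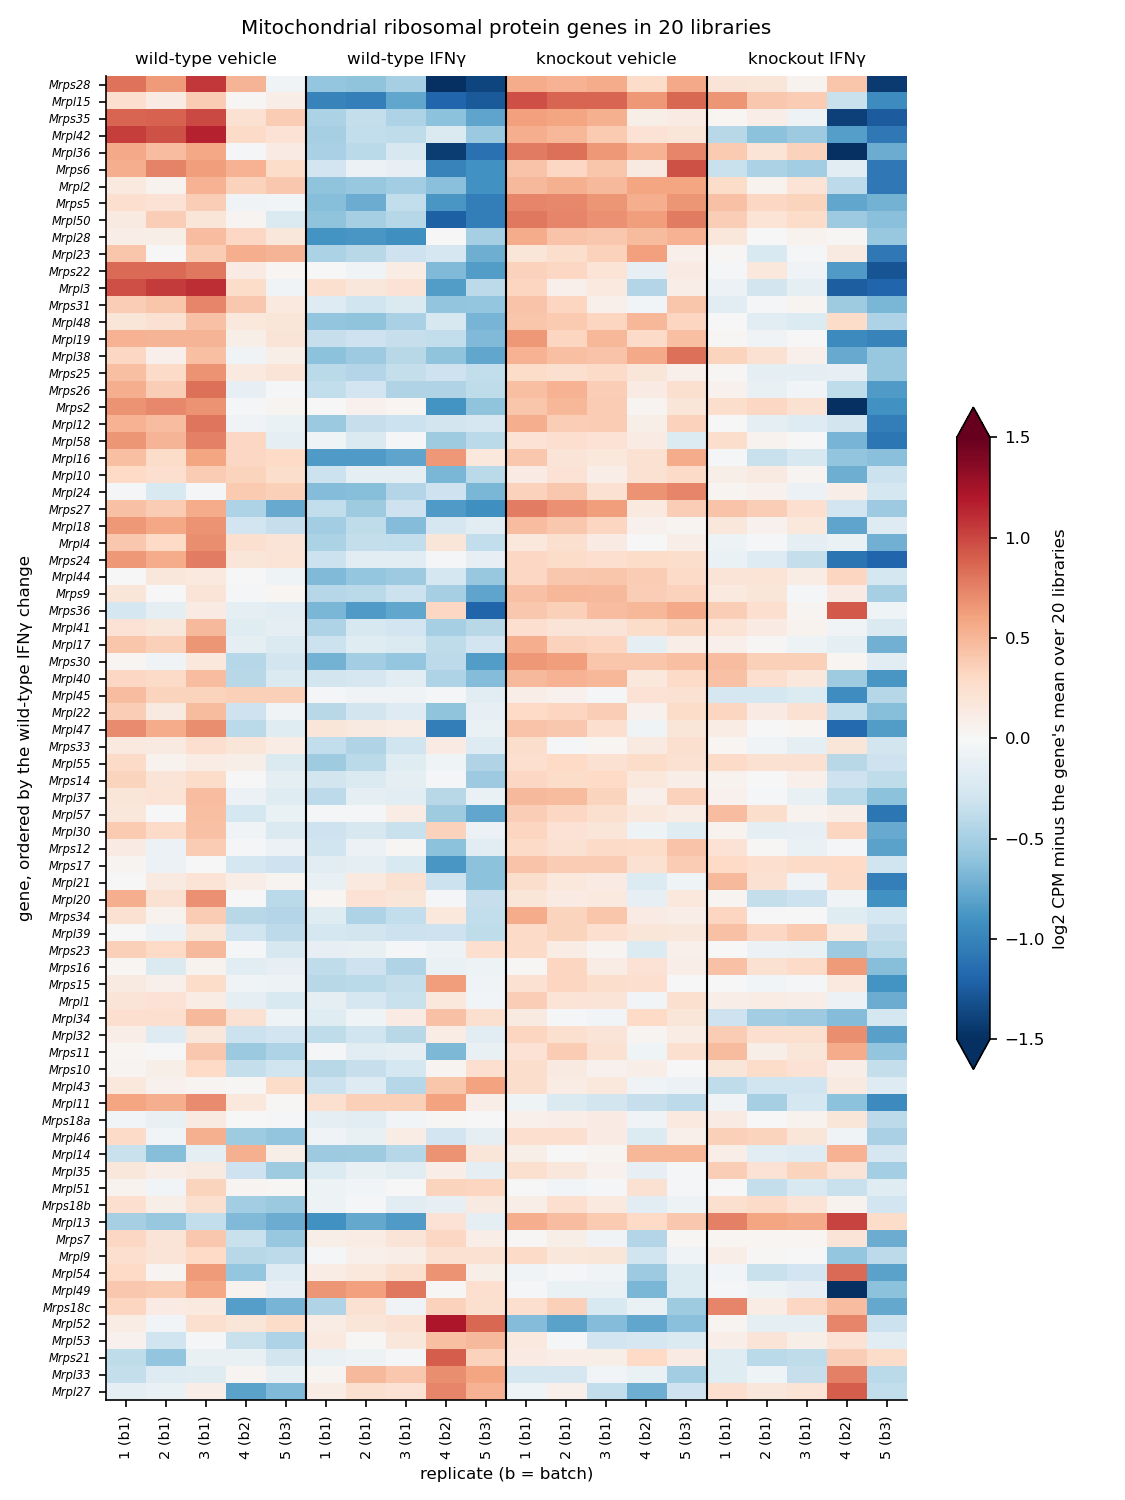
Levels of the 78 mitochondrial ribosomal protein genes (rows, ordered by their IFNγ change in wild-type cells) in the 20 libraries (columns, by group and replicate, with the batch in brackets), coloured by log2 CPM minus the gene's mean over the 20 libraries. Most rows are lower in the wild-type IFNγ libraries of batch 1 than in the vehicle libraries, and the batch 2 and 3 libraries differ from those of batch 1 within the same group.

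Levels differed 29.4-fold between the highest and the lowest gene in mean CPM. Per kilobase of transcript, which allows levels to be compared between genes, Mrpl52 was highest at 135.5 CPM per kb, followed by Mrpl13 at 132.5, Mrps21 at 108 and Mrpl12 at 105.9 CPM per kb. The lowest were Mrps25 at 4.77, Mrpl58 at 6.57, Mrpl48 at 7.94, Mrpl47 at 7.98 and Mrps35 at 8.28 CPM per kb, and the median was 30.9 CPM per kb. The length is that of the longest transcript marked as principal by APPRIS in GENCODE on the GRCm38 assembly, and the order of the genes depends on that choice. For Mrpl13 it is 1223 bases, while all its annotated exons cover 7936 bases, and for Mrpl33 it is 478 of 7326 bases. Some exons lie under other genes, and whether counting used the strand is not given in the sources used here: 69.8% of the exon bases of Mrps25 overlap Nr2c2 and 63.4% of those of Mrps34 overlap Mapk8ip3, both on the opposite strand. On the opposite strand too, 36.0% of those of Mrpl19 overlap Gcfc2 and 33.4% of those of Mrpl43 overlap Twnk, and 37.0% of those of Mrps34 overlap Nme3 on the same strand. The levels and calls of Mrps25, Mrps34, Mrpl19 and Mrpl43 are uncertain for that reason.

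In wild-type cells, IFNγ was followed by lower levels of most of these genes. Of the 78, 43 fell and 4 rose, against 29.9% and 29.0% of all 13755 tested genes called lower and higher. The median log2 change of the 78 was -0.407, against 0.012 over all tested genes. Of 51 structural proteins of the large subunit, 28 fell and 3 rose, and of 26 of the small subunit, 14 fell and 1 rose. Of proteins with bacterial counterparts and of mitochondria-specific ones, 16 of 29 and 12 of 22 fell in the large subunit, and 7 of 16 and 7 of 10 in the small subunit. Changes were mostly under 2-fold. Of the 78, 5 were called and passed 1 log2 unit, against 4143 of all 13755 tested genes. The median absolute change was 0.459, against 0.667 over all tested genes.

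The deepest fall was that of Mrps28, a small-subunit protein: its levels were 37.8, 33.6, 45.0, 30.8 and 20.9 CPM with vehicle and 14.4, 14.2, 15.3, 6.16 and 8.29 CPM with IFNγ. The groups did not overlap, and the change was -1.53 ± 0.23 on the log2 scale (SE, adjusted p = 1.37e-05, edgeR). Mrpl15, a large-subunit protein with a bacterial counterpart, went from 91.1, 83.0, 99.5, 77.2 and 81.6 CPM to 38.1, 37.4, 44.5, 33.4 and 31.9 CPM. Every IFNγ library was below every vehicle library, with a change of -1.23 ± 0.16 (adjusted p = 3.15e-06). Mrps35, a mitochondria-specific small-subunit protein, was at 57.1, 57.7, 62.2, 36.7 and 40.5 CPM with vehicle and at 22.4, 24.3, 22.6, 20.4 and 18.1 CPM with IFNγ. It fell by 1.21 ± 0.15 on the log2 scale without overlap (adjusted p = 1.92e-06).

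Mrpl42, a mitochondria-specific large-subunit protein, was at 104.6, 98.4, 113, 61.9 and 59.2 CPM with vehicle and at 36.0, 39.3, 38.9, 43.8 and 34.6 CPM with IFNγ. Its vehicle level was lower in batches 2 and 3 than in batch 1, yet all 5 IFNγ libraries lay below all vehicle libraries (-1.14 ± 0.13, adjusted p = 4.48e-07). Mrpl36, whose bacterial counterpart binds zinc, went from 67.5, 62.7, 68.2, 45.0 and 49.4 CPM to 32.4, 34.2, 38.4, 17.0 and 20.9 CPM, again without overlap (-1.08 ± 0.20, adjusted p = 0.000107). Mrps2, the small-subunit gene with the highest mean CPM, was at 155, 159, 154, 94.8 and 99.3 CPM with vehicle and at 96.6, 100.8, 98.1, 52.0 and 63.6 CPM with IFNγ. Its groups overlapped because both levels were lower in batches 2 and 3, and the fitted change was -0.70 ± 0.19 (adjusted p = 0.00428), which lost its call without the batch term. Mrpl12, a stalk protein that also binds the mitochondrial RNA polymerase, fell from 192, 184, 233, 128 and 125 CPM to 90.6, 105, 106, 110.3 and 112 CPM (-0.68 ± 0.15, adjusted p = 0.000903). All 5 of its IFNγ libraries were below all vehicle libraries.

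The 4 genes that rose in wild-type cells were Mrpl27, Mrpl33, Mrpl53 and Mrps21. Mrpl27, a large-subunit protein near the peptidyl transferase centre, was at 25.2, 26.0, 29.9, 15.9 and 17.5 CPM with vehicle and at 30.1, 32.8, 32.4, 46.4 and 40.0 CPM with IFNγ. The groups did not overlap (0.67 ± 0.21, adjusted p = 0.0112), and the difference was 0.23 in batch 1, 1.54 in batch 2 and 1.19 in batch 3. Mrpl33, the gene with the lowest mean CPM of all 78, was at 4.14, 4.65, 4.68, 5.47 and 4.93 CPM with vehicle and at 5.49, 7.44, 7.05, 8.65 and 8.04 CPM with IFNγ (0.62 ± 0.19, adjusted p = 0.00917). Every IFNγ library was above every vehicle library, the closest pair being 5.47 and 5.49 CPM. Mrpl53, mitochondria-specific, was at 30.7, 23.9, 28.9, 23.3 and 21.4 CPM and then at 32.6, 29.8, 32.96, 40.3 and 41.0 CPM (0.47 ± 0.14, adjusted p = 0.00589). One IFNγ library lay within the vehicle range. Mrps21, a small-subunit protein with a bacterial counterpart, was at 39.3, 34.1, 47.3, 47.5 and 42.5 CPM with vehicle and at 47.7, 48.5, 50.6, 96.1 and 65.2 CPM with IFNγ (0.50 ± 0.13, adjusted p = 0.00299). In all 4 genes but Mrpl53 the groups did not overlap, and in all 4 the 2 highest libraries were those of batches 2 and 3, which stand apart. Without the IFNγ libraries of these batches, Mrpl27 (0.28, adjusted p = 0.0359), Mrpl33 (0.50, adjusted p = 0.0117) and Mrps21 (0.265, adjusted p = 0.0173) were still called higher by edgeR, and Mrpl53 was not (0.21, adjusted p = 0.0908). Mrpl53 lost its call in batch 1 alone as well. With plain library totals in place of TMM, Mrpl27, Mrpl33 and Mrpl53 lost their calls and Mrps21 kept its own.

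By batch, the median of the 78 wild-type changes was -0.518 in batch 1, -0.136 in batch 2 and -0.160 in batch 3, where batches 2 and 3 have 1 library a group. The change was below 0 for 72, 48 and 44 of the 78 genes in the 3 batches, and for 41 genes in all 3. Over all 13755 tested genes it was below 0 for 6598, 7302 and 7116, and for 4488 in all 3. The all-gene medians were 0.046, -0.103 and -0.061, so the 78 genes stood further from all genes in batch 1 than in batches 2 and 3. Without the IFNγ libraries of batches 2 and 3, 56 of the 78 fell and 4 rose, against 33.3% and 33.4% of 14143 tested genes, and their median was -0.507. The 4 then called higher did not include Mrpl53. Of the 47 calls, 14 held under all 29 other settings tried, and 36 held under all but the fit on batches 2 and 3 alone. The 14 were Mrpl2, Mrpl10, Mrpl15, Mrpl23, Mrpl24, Mrpl36, Mrpl38, Mrpl50, Mrps5, Mrps6, Mrps22, Mrps28 and Mrps35, which fell, and Mrps21, which rose.

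**Figure D2:**
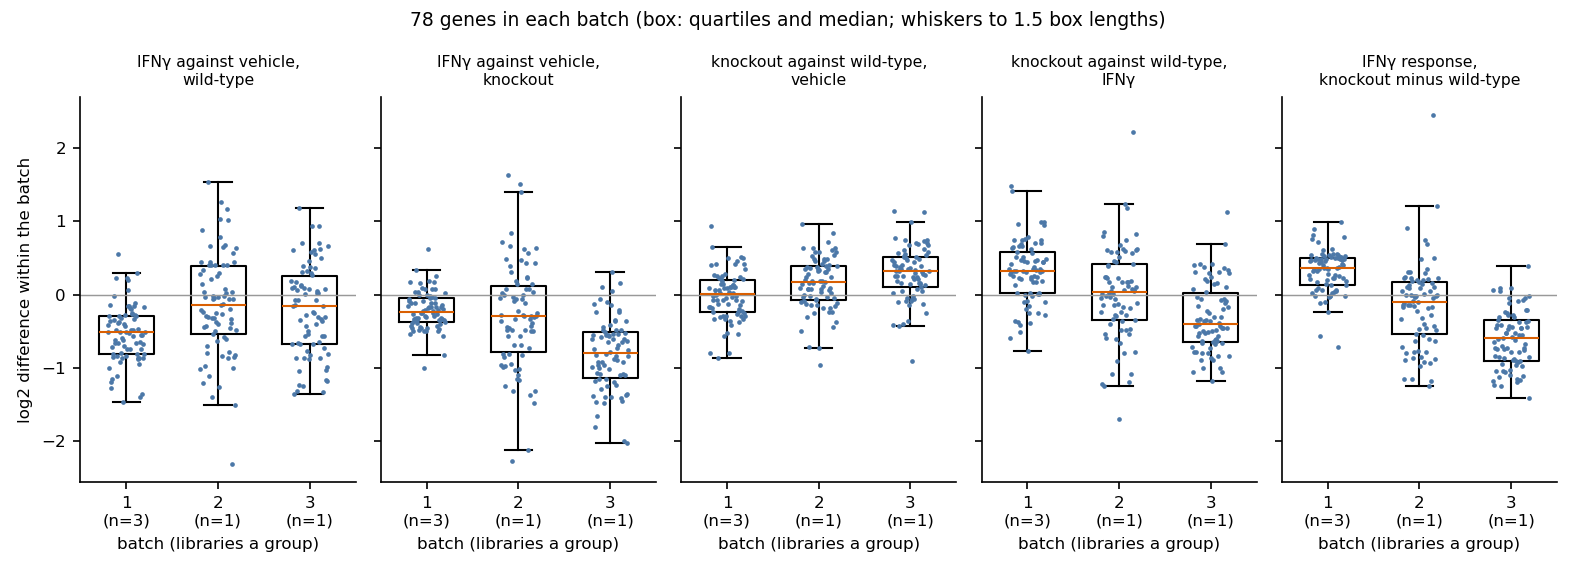
Log2 differences of the 78 genes within each batch (3 libraries a group in batch 1, 1 in batches 2 and 3) for the 5 comparisons; boxes show quartiles and median, whiskers reach 1.5 box lengths. The IFNγ medians are below 0 in every batch in both lines, while the difference between the 2 responses is 0.362, -0.097 and -0.598 in batches 1, 2 and 3. Over all tested genes, the IFNγ medians are 0.046, -0.103 and -0.061 in wild-type and -0.028, -0.068 and 0 in knockout cells.

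In knockout cells, IFNγ was likewise followed by lower levels of these genes. Of the 78, 39 fell and 1 rose, against 21.8% and 21.4% of all tested genes, with a median change of -0.335, against -0.016 over all tested genes. The large subunit had 25 of 51 falling and 1 rising, and the small subunit 14 of 26 falling and none rising. Of the 78, 36 fell in both lines, 7 fell by the test in wild-type only and 3 in the knockout only, and 27 passed in neither. The 7 were Mrpl18, Mrpl22, Mrpl41, Mrpl44, Mrpl55, Mrps33 and Mrps36, and the 3 were Mrpl20, Mrpl34 and Mrps12. None of these 10 passed the test of the difference between the lines.

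Mrpl42 fell most in the knockout as well: it was at 74.0, 72.1, 66.8, 58.9 and 57.6 CPM with vehicle and at 38.2, 33.3, 34.7, 28.8 and 24.2 CPM with IFNγ. No library overlapped, and the change was -1.06 ± 0.13 (SE, adjusted p = 3.04e-06, edgeR). Mrps6, a small-subunit protein with a bacterial counterpart, was at 17.6, 16.2, 17.4, 14.4 and 25.5 CPM with vehicle and at 10.4, 9.43, 9.12, 11.7 and 6.22 CPM with IFNγ, again without overlap (-0.97 ± 0.20, adjusted p = 0.000746). In wild-type cells Mrps6 had gone from 19.2, 21.9, 20.2, 18.7 and 15.9 CPM to 10.7, 12.3, 12.04, 6.55 and 6.99 CPM, a change of -0.99 ± 0.20 (adjusted p = 0.000326). The responses of Mrps6 in the 2 lines were thus within 1 SE of each other. Mrpl36 in the knockout was at 78.1, 80.8, 71.3, 65.1 and 75.3 CPM with vehicle and at 59.7, 52.4, 58.0, 13.4 and 27.1 CPM with IFNγ (-0.97 ± 0.20, adjusted p = 0.000621). The low values of Mrpl36 were in replicates 4 and 5, the libraries that stand apart, while its batch 1 libraries also lay below every vehicle library.

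The gene that rose in the knockout was Mrpl52, a mitochondria-specific large-subunit protein. Its levels were 33.6, 30.2, 33.7, 30.6 and 34.0 CPM with vehicle and 54.5, 47.6, 47.6, 87.48 and 42.0 CPM with IFNγ, without overlap (0.74 ± 0.17, adjusted p = 0.00146). This call held under all 29 settings. In wild-type cells Mrpl52 was at 56.9, 51.3, 62.5, 59.8 and 64.1 CPM with vehicle and at 57.2, 59.6, 61.9, 122 and 95.6 CPM with IFNγ, and the change of 0.37 ± 0.17 did not pass the test (adjusted p = 0.0583). Mrpl34, a large-subunit protein with a bacterial counterpart, was at 46.8, 42.2, 41.5, 52.6 and 48.5 CPM in the knockout with vehicle and at 34.3, 29.7, 29.2, 27.2 and 35.6 CPM with IFNγ (-0.56 ± 0.13, adjusted p = 0.00176). Its knockout groups did not overlap, whereas its wild-type groups did, at 40.7 to 59.8 CPM and 37.6 to 57.9 CPM.

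By batch, the median knockout change was -0.235, -0.297 and -0.800, below 0 for 64, 51 and 74 of the 78 genes and for 50 genes in all 3 batches. Over all 13755 tested genes it was below 0 for 7161, 7225 and 6808, and for 4376 in all 3, with medians of -0.028, -0.068 and 0. Without the IFNγ libraries of batches 2 and 3, 43 of the 78 fell and 2 rose, against 23.5% and 23.6% of tested genes, with a median of -0.267. Of the 40 calls, 16 held under all 29 other settings: Mrpl2, Mrpl12, Mrpl15, Mrpl19, Mrpl24, Mrpl28, Mrpl36, Mrpl38, Mrpl42, Mrpl45, Mrpl50, Mrps5, Mrps24, Mrps26 and Mrps35, which fell, and Mrpl52, which rose. Among these, Mrpl19 is subject to the overlap with Gcfc2 given above. Mrps30, called lower in the knockout (adjusted p = 0.0363), lost its call in 13 of the 29, among them leaving out knockout vehicle replicate 1, 2, 4 or 5 or knockout IFNγ replicate 4 or 5. Mrps28, at -0.57 ± 0.23 (adjusted p = 0.0476), kept its call in 11 of them.

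**Figure D3:**
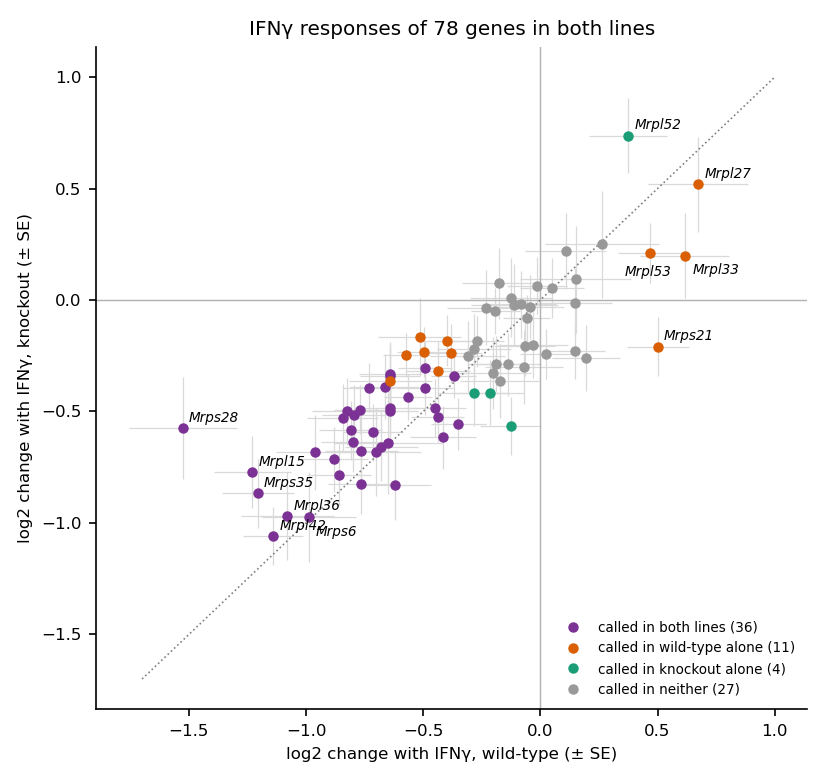
Log2 change with IFNγ in wild-type cells (horizontal) and in knockout cells (vertical) for the 78 genes, with SE bars, coloured by call. Most points lie below 0 on both axes, 51 of the 78 have a lower value in wild-type than in knockout cells, and Pearson's r over the genes is 0.835.

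Sequences around the starts of these genes are shown because the few that rose with IFNγ and the many that fell may be compared by their promoters. ETS-family factors, NRF1 and YY1 are known regulators of nuclear genes for mitochondrial proteins. RefSeq start sites on GRCm38.p6 were matched for 69 of the 78 genes, as windows of 300 bases from 250 before to 50 after each start, searched on both strands. The core CCGGAAG of ETS factors (the family of GABPA) was in the windows of 26 of the 69 genes, or 37.7%, against 10.0% of all 26742 genes with a window and 20.6% of 9879 tested ones. TGCGCA, the core of the NRF1 site, was in 30.4%, against 8.8% and 15.8%. AAGATGG, the core of the YY1 site, was in 18.8%, against 7.3% and 8.7%. The E-box CACGTG, bound by MYC, was in 7.2%, against 8.1% and 11.6%, and the GC box GGGCGG was in 49.3%, against 38.5% and 66.9%. The ends of CCGGAAG and AAGATGG can overlap, and GGGCGG and TGCGCA can adjoin, as they do in Mrpl23 below. A match is a string of letters and shows no binding.

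The ETS core was present in the windows of all 4 genes that rose in wild-type cells and of Mrpl52, which rose in the knockout. It was present in 10 of 37 matched genes that fell in wild-type cells (27.0%) and in 12 of 28 without a call (42.9%). The 7 sites of those 5 genes are printed 5′ to 3′ in the direction of the motif, with the core in capitals and 8 bases on each side, because the core is in the window of every gene that rose. Their places on GRCm38.p6 are chr11:94653728-94653750 (plus strand) for Mrpl27, chr5:31613940-31613962 (plus) for Mrpl33, chr6:83109041-83109063 (plus) and chr6:83109084-83109106 (minus) for Mrpl53, chr3:95871482-95871504 (plus) for Mrps21, and chr14:54426854-54426876 (minus) and chr14:54426903-54426925 (minus) for Mrpl52. Relative to the start, in the direction of the gene, the cores begin at -55, -3, -59, -16, 19, -47 and 3 in that order. The Mrpl33 core thus spans the start, and the Mrps21 core and the second Mrpl52 core lie after it.
Mrpl27: cgcaagacCCGGAAGtagatcta
Mrpl33: cgcatgccCCGGAAGtagtcgtt
Mrpl53, first site: cggagccgCCGGAAGcggtccgt
Mrpl53, second site: cctccaccCCGGAAGgagtagca
Mrps21: tctgcggaCCGGAAGcggaagct
Mrpl52, first site: cgggaaaaCCGGAAGccgacatc
Mrpl52, second site: caagggaaCCGGAAGtgggcgtg
The Mrpl27, Mrpl33 and second Mrpl52 sites are followed by t, which 12 of the 29 such sites with both flanks in these promoters are; 10 of the 29 are preceded by a.

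Longer upstream stretches follow for Mrpl52, the gene that rose in the knockout, and for 3 genes that fell in both lines and differ in their motifs, Mrpl42, Mrpl23 and Mrps22. They run 5′ to 3′ in the direction of the gene, with matches on either strand in capitals, on GRCm38.p6 at chr14:54426659-54426908 (plus strand), chr10:95501950-95502199 (minus), chr7:142532831-142533011 (plus) and chr9:98601680-98601929 (minus). The capitals mark the YY1 core and the reversed ETS core in Mrpl52, a reversed GC box in Mrpl42, 2 GC boxes and an NRF1 core in Mrpl23, and a GC box and an ETS core in Mrps22.
Mrpl52: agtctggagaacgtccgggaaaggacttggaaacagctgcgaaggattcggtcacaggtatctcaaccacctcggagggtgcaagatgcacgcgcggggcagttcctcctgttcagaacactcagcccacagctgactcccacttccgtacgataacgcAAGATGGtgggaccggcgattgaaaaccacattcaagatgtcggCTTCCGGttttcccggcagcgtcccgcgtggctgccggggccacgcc
Mrpl42: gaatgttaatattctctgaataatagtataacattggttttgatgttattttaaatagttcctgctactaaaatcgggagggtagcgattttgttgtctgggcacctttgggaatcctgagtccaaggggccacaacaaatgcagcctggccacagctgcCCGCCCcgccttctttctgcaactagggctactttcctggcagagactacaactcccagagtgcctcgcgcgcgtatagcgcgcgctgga
Mrpl23: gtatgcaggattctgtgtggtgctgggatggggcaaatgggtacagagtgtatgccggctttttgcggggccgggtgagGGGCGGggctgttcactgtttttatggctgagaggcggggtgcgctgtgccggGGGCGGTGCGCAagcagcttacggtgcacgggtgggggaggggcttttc
Mrps22: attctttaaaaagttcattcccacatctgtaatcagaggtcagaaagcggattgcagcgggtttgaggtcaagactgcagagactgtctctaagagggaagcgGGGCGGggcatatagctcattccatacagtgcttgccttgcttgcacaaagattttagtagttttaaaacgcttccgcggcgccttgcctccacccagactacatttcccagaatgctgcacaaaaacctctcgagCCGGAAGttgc
Mrps22, a mitochondria-specific small-subunit protein, thus has the ETS core 11 bases before its start and was lower with IFNγ in both lines, at -0.81 in wild-type and -0.58 in knockout cells. Mrpl42, with the deepest fall in the knockout, had a GC box before its start and a YY1 core 28 bases after it, outside the printed stretch. The ETS core was thus in genes that rose and in genes that fell. The NRF1 core and the GC box were in 0 of the 4 genes that rose in wild-type cells and in 11 and 18 of the 37 matched genes that fell. These counts are too few for more than a description, and no test was made.

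Under vehicle, most of these genes differed little between the lines. Of the 78, 13 were called higher in the knockout and 5 lower, against 12.5% and 14.8% of all tested genes, and the median difference was 0.089, against 0.025 over all tested genes. In the large subunit 7 of 51 were higher and 5 lower, and in the small subunit 5 of 26 were higher and none lower; the remaining one is Mrps36. The median absolute difference was 0.176, against 0.339 over all tested genes. No member passed 1 log2 unit, whereas 1488 of all 13755 tested genes were called and did.

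Mrpl13, a large-subunit protein with a bacterial counterpart and the highest mean CPM of the 78, stood out by size. It was at 105.8, 100.5, 116, 94.1 and 89.1 CPM in wild-type and at 217, 205, 195, 184 and 197 CPM in knockout vehicle libraries. No library overlapped, and the difference was 0.98 ± 0.17 (SE, adjusted p = 0.000223, edgeR), called under all 29 settings. Mrpl15 was at 149, 139.75, 140.15, 119.8 and 139 CPM in the knockout, above its wild-type values given before, with a difference of 0.68 ± 0.16 (adjusted p = 0.00351). Mrpl50, mitochondria-specific, was at 41.8, 49.3, 43.3, 39.1 and 32.7 CPM in wild-type and at 65.8, 63.4, 61.1, 58.7 and 65.2 CPM in knockout libraries, without overlap (0.63 ± 0.14, adjusted p = 0.00153). Mrps30, named for the small subunit but a protein of the large one, was at 50.0, 47.1, 54.7, 36.4 and 40.6 CPM in wild-type and at 76.7, 75.7, 65.2, 65.4 and 67.2 CPM in knockout libraries (0.62 ± 0.11, adjusted p = 0.00033), also without overlap. Mrps36, now known as a component of the alpha-ketoglutarate dehydrogenase complex and not of the ribosome, was at 18.5, 20.04, 24.2, 20.1 and 19.7 CPM in wild-type and at 29.3, 28.4, 30.5, 31.3 and 32.99 CPM in knockout libraries (0.57 ± 0.18, adjusted p = 0.019). Its call was lost without wild-type vehicle replicate 4 or knockout vehicle replicate 5.

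Of the 5 genes called lower, Mrpl52 differed most: its knockout vehicle libraries, at 30.2 to 34.0 CPM, lay below all wild-type ones, at 51.3 to 64.1 CPM (-0.85 ± 0.17, adjusted p = 0.000614). Mrpl11, at the base of the ribosomal stalk, was at 39.8, 38.7, 43.5, 29.5 and 26.8 CPM in wild-type and at 25.4, 22.8, 21.97, 21.0 and 20.1 CPM in knockout libraries, without overlap (-0.66 ± 0.13, adjusted p = 0.000692). Mrpl3, a large-subunit protein with a bacterial counterpart, was at 149.8, 158, 165, 92.8 and 73.8 CPM in wild-type and at 95.4, 80.5, 84.6, 56.6 and 82.0 CPM in knockout libraries. Its groups overlapped, and the difference was -0.86 in batch 1, -0.71 in batch 2 and 0.15 in batch 3 (fitted -0.62 ± 0.14, adjusted p = 0.00167). Mrpl49 (-0.49 ± 0.15, adjusted p = 0.0174) and Mrpl42 (-0.38 ± 0.13, adjusted p = 0.0313) were the other two; Mrpl49 lost its call without wild-type vehicle replicate 4, and Mrpl42 lost it without wild-type vehicle replicate 1, 2 or 3 or knockout vehicle replicate 1, 2, 3 or 4.

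By batch, the median knockout difference under vehicle was 0.004, 0.167 and 0.318, below 0 for 38, 25 and 15 of the 78 genes. Over all 13755 tested genes it was below 0 for 6679, 6474 and 6708, with medians of 0.016, 0.031 and 0.014. With the IFNγ libraries of batches 2 and 3 left out of the shared fit, which leaves every vehicle library in place, 26 of the 78 were called higher and 10 lower, against 27.3% and 26.4% of tested genes. The median was then 0.086. With all libraries, 16.7% of the 78 were called higher and 6.41% lower, so higher calls were somewhat above and lower calls below the background share, and the same order held with those libraries left out.

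Under IFNγ, 19 of the 78 were called higher in the knockout and 9 lower, against 20% and 19.0% of all tested genes. The median difference was 0.128, against 0.006 over all tested genes. Of these, 12 were higher and 4 lower under both treatments; the 4 were Mrpl3, Mrpl11, Mrpl49 and Mrpl52. The 12 were Mrpl13, Mrpl15, Mrpl24, Mrpl39, Mrpl44, Mrpl50, Mrps5, Mrps9, Mrps17, Mrps27, Mrps30 and Mrps36. The 7 called higher under IFNγ alone were Mrpl2, Mrpl28, Mrpl38, Mrpl41, Mrpl48, Mrps16 and Mrps28, and the 5 called lower under IFNγ alone were Mrpl33, Mrpl34, Mrpl45, Mrpl51 and Mrps24.

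Mrpl15 showed the widest gap under IFNγ, at 121, 100.8, 99.3, 60.6 and 39.55 CPM in knockout libraries against 31.9 to 44.5 CPM in wild-type. Knockout replicate 5 lay inside the wild-type range and the other 4 above it (1.13 ± 0.16, adjusted p = 2.08e-05, edgeR). Mrpl13 was at 79.2, 87.6, 83.0, 173 and 135 CPM in wild-type and at 251, 226, 220.3, 302 and 179.8 CPM in knockout libraries, without overlap (1.09 ± 0.17, adjusted p = 5.47e-05). Mrps36 was at 13.8, 12.3, 12.9, 27.44 and 9.65 CPM in wild-type and at 28.5, 26.4, 22.7, 42.0 and 21.2 CPM in knockout libraries (0.92 ± 0.18, adjusted p = 0.000374). Wild-type replicate 4 was the only wild-type library of Mrps36 inside the knockout range. Mrps28 was at 24.7, 24.4, 22.3, 28.7 and 7.97 CPM in the knockout, with replicate 5 alone inside the wild-type range of 6.16 to 15.3 CPM (0.87 ± 0.23, adjusted p = 0.0051).

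Among the genes lower in the knockout under IFNγ, Mrpl49, mitochondria-specific, was at 52.9, 50.9, 57.8, 33.7 and 39.8 CPM in wild-type and at 32.7, 31.6, 30.6, 10.3 and 21.8 CPM in knockout libraries. All knockout libraries lay below all wild-type ones, with the nearest pair in different batches (-0.94 ± 0.15, adjusted p = 5.1e-05). Mrpl11 was at 31.4, 34.1, 33.9, 40.2 and 28.5 CPM in wild-type and at 25.6, 18.8, 22.2, 17.3 and 13.7 CPM in knockout libraries, without overlap (-0.80 ± 0.13, adjusted p = 7.84e-05). Mrpl11 and Mrpl49 were the 2 members whose calls in this comparison held under all 29 settings. Mrpl34 differed by -0.57 ± 0.13 (adjusted p = 0.00184). Mrpl33, at -0.48 ± 0.19 (adjusted p = 0.0497), kept its call under 10 of the 29 settings.

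**Figure D4:**
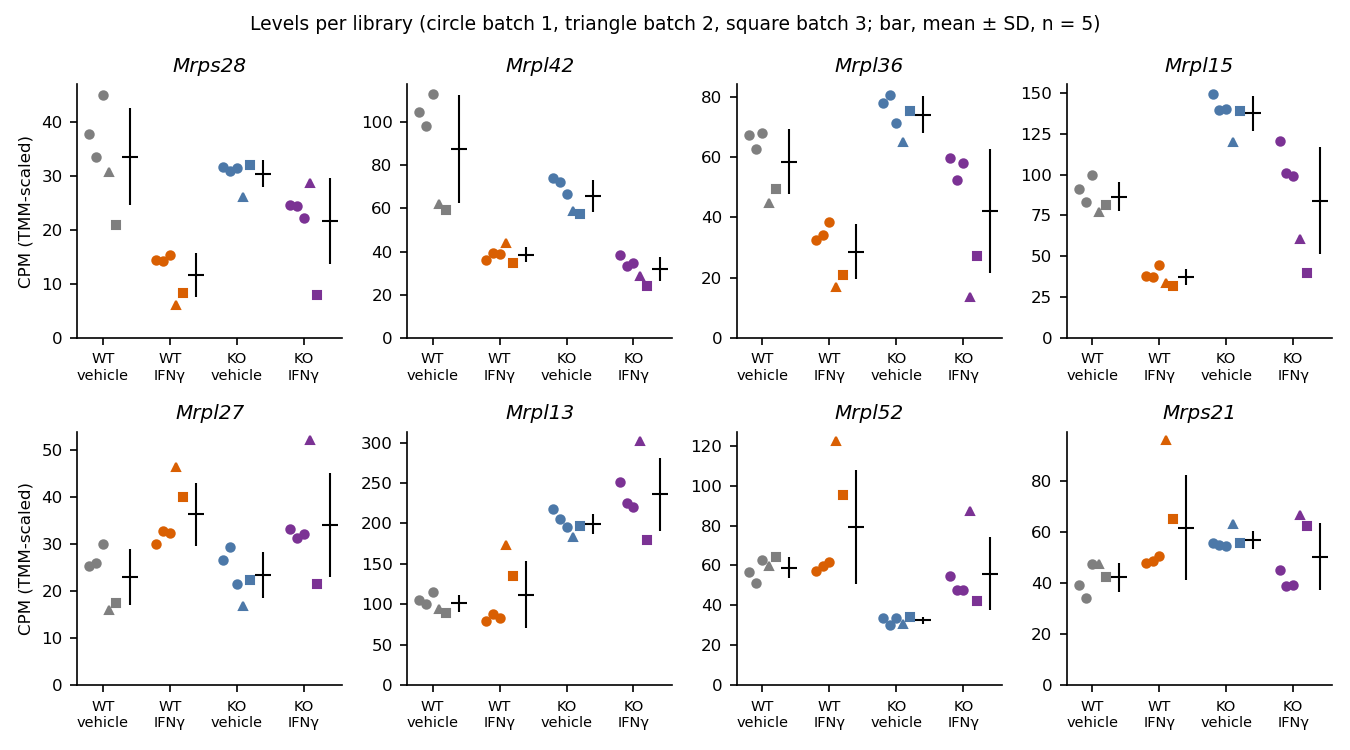
CPM per library (TMM-scaled) of 8 named genes in the 4 groups; circles are batch 1, triangles batch 2 and squares batch 3, and bars give the mean ± SD (n = 5). Mrpl13 is higher in all knockout libraries under both treatments, Mrpl42 is lower in all IFNγ libraries of both lines, and Mrps21 is higher in all wild-type IFNγ than in all wild-type vehicle libraries.

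The direction of the knockout difference under IFNγ depended on the batch. The median was 0.322 in batch 1, 0.038 in batch 2 and -0.399 in batch 3, with 17, 36 and 58 of the 78 genes below 0. Over all 13755 tested genes, 7053, 6520 and 6551 were below 0, with medians of -0.022, 0.026 and 0.036. Without the IFNγ libraries of batches 2 and 3, 50 of the 78 were called higher and 6 lower, against 30.5% and 28.1% of tested genes, and their median rose to 0.348. For Mrps2 and Mrpl58 the sign changed as well: they were at -0.07 and -0.02 with all libraries and at 0.26 and 0.24 in batch 1 alone. The libraries that stand apart thus carry the opposite direction to batch 1 for many of these genes, and their part in the result was not tested.

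Whether the lines responded to IFNγ differently was tested gene by gene as the difference of the 2 responses. Of the 78, 1 passed and was lower, and none was higher, against 2.86% and 3.64% of all tested genes called lower and higher. The median difference was 0.081, against 0.018 over all tested genes. The gene was Mrps21, which rose in wild-type cells and was at 55.8, 54.8, 54.5, 62.91 and 55.8 CPM with vehicle and at 45.1, 38.7, 39.3, 66.4 and 62.2 CPM with IFNγ in the knockout. The batch 1 knockout libraries were lower with IFNγ and those of batches 2 and 3 higher. The difference of its responses was -0.71 ± 0.19 (adjusted p = 0.0263, edgeR), and -0.72, -0.94 and -0.46 in the 3 batches. The call held under 20 of 29 settings and was lost without wild-type vehicle replicate 2 or 5, knockout vehicle replicate 1, 2 or 3, or knockout IFNγ replicate 2 or 3. Mrps28 had a larger difference of 0.95 ± 0.32 that did not pass (adjusted p = 0.0833).

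The batches gave opposite pictures of this difference too. In batch 1 its median was 0.362 and 10 of the 78 genes were below 0, so most were lowered less in the knockout. In batch 3 it was -0.598 with 73 genes below 0, and in batch 2 -0.097 with 48. Over all 13755 tested genes, 6982, 6734 and 6448 were below 0 in batches 1, 2 and 3, with medians of -0.013, 0.026 and 0.066. Without the IFNγ libraries of batches 2 and 3, 32 of the 78 were called higher and 1 lower, against 22.3% and 15.7% of tested genes, with a median of 0.288. Over the 78 genes the 2 responses, which share no library, had a Pearson's r of 0.835 and a Spearman's rho of 0.852. The knockout differences under vehicle and under IFNγ, which share none either, had an r of 0.798 and a rho of 0.768. Both describe genes that share scaling and batches.

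Genes picked by name for their roles, and not yet described, varied in their response. Mrpl58, a peptidyl-tRNA hydrolase that rescues stalled mitochondrial ribosomes, was at 22.4 ± 5.05, 13.9 ± 2.03, 17.8 ± 2.12 and 14.1 ± 5.01 CPM (SD, n = 5) in wild-type vehicle, wild-type IFNγ, knockout vehicle and knockout IFNγ libraries. With all libraries it fell in both lines (-0.67, adjusted p = 0.00063, and -0.39, adjusted p = 0.036, edgeR). The knockout call was lost in batch 1 alone and without any 1 of 5 knockout libraries (vehicle replicates 4 and 5, IFNγ replicates 3, 4 and 5). Without the IFNγ libraries of batches 2 and 3, Mrpl58 was at -0.70 in wild-type cells and -0.15 in the knockout (adjusted p = 0.27). Its difference of responses was then called higher (0.549, adjusted p = 0.00552). Mrps12, a protein of the decoding centre, was at 36.3 ± 5.25 CPM with vehicle and 29.8 ± 4.75 CPM with IFNγ in wild-type cells, which did not pass the test (adjusted p = 0.11). In the knockout it fell from 42.7 ± 2.29 to 32.4 ± 7.55 CPM (-0.42, adjusted p = 0.03), a call lost without knockout vehicle replicate 4 or 5 or knockout IFNγ replicate 3 or 5. This call was also lost in batch 1 alone and without the IFNγ libraries of batches 2 and 3 (-0.25, adjusted p = 0.09). The 3 homologs of bacterial S18 passed in no comparison with all libraries. Mrps18a, which sits in the large subunit, was at 87.8 ± 5.47, 84.2 ± 4.7, 93.2 ± 4.8 and 88.4 ± 12.8 CPM. Mrps18b was at 30.3 ± 8.06, 30.5 ± 2.51, 32.8 ± 3.86 and 34.1 ± 5.1 CPM, and Mrps18c, the second lowest of the 78 in mean CPM, at 9.43 ± 3.18, 10.8 ± 2.22, 10.1 ± 2.49 and 12.1 ± 4.07 CPM. Without the IFNγ libraries of batches 2 and 3, all 3 homologs were called higher in the knockout under IFNγ. The differences were 0.197 for Mrps18a, 0.357 for Mrps18b and 0.498 for Mrps18c (adjusted p = 0.0303, 0.00808 and 0.0464, edgeR). Part of the Mrps18b level is uncertain, since 30.5% of its exon bases overlap an antisense gene.

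The other genes of mitochondrial gene expression are given by their counts, to be read against 29.9% and 29.0% of all tested genes called lower and higher with IFNγ in wild-type cells, and 21.8% and 21.4% in the knockout. Of 14 tested mitochondrial translation factors, 12 fell and 1 rose with IFNγ in wild-type cells, with a median of -0.889, and 12 fell in the knockout with a median of -0.677. Guf1, a translation factor of the LepA family, fell by 1.56 and 1.29 on the log2 scale in the 2 lines. Tufm, the mitochondrial elongation factor Tu, fell by 1.19 in wild-type cells. Mtif3, an initiation factor, rose by 0.50 there. Of 20 mitochondrial aminoacyl-tRNA synthetases, 15 fell in wild-type and 11 in knockout cells (medians -0.899 and -0.626), with Vars2 at -1.76 and Nars2 at -1.52 in wild-type cells. Of 10 genes of mitochondrial DNA transcription and upkeep, 7 and 5 fell, among them Polrmt, the mitochondrial RNA polymerase (-0.86 in wild-type cells), and Twnk, the helicase (-1.29 in the knockout). The medians of the translation factors and synthetases were lower than the -0.407 of the 78 ribosomal protein genes; no test of that difference was made.

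Assembly factors were mixed. Of 25, 10 fell and 4 rose in wild-type cells (40% and 16%, against 29.9% and 29.0% of all tested genes), and 7 fell and none rose in the knockout (28% falling, against 21.8%). Noa1, a GTPase of ribosome assembly, fell by 1.80 and 1.48 on the log2 scale, and Rbfa, a small-subunit maturation factor, fell by 1.19 and 0.96. Mrm1, a methyltransferase of the large-subunit RNA, rose by 1.46 in wild-type cells, and its response in the knockout was lower by 1.31 (adjusted p = 0.0047, edgeR). Gtpbp10, another assembly GTPase, was higher in the knockout by 1.77 with vehicle and by 1.85 with IFNγ. Dhx30, of the same list, went the other way. Without the IFNγ libraries of batches 2 and 3, its knockout difference was -0.79 with vehicle and -0.81 with IFNγ. Of 5 ribosomal proteins whose symbols do not start with Mrpl or Mrps, 3 fell in each line, among them Ptcd3 (-1.53 and -0.94) and Dap3 (-0.75 in wild-type cells). Without the IFNγ libraries of batches 2 and 3, Noa1 was at -1.46 in wild-type and -1.05 in knockout cells, and Dap3 at -0.57 in wild-type cells. The difference of responses of Dap3 was then called higher (0.353, adjusted p = 0.00304, edgeR).

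Of 12 regulators fixed for this family, 3 rose and 3 fell in wild-type cells and 2 rose and 4 fell in the knockout. In wild-type cells that is 25% each way, below the 29.0% and 29.9% of all tested genes, and in the knockout 16.7% and 33.3%, against 21.4% and 21.8%. Myc, which activates genes of ribosome biogenesis, rose by 1.88 and 1.85 on the log2 scale with all libraries. Without the IFNγ libraries of batches 2 and 3, Myc still rose in wild-type cells (2.13, adjusted p = 2.49e-07, edgeR). In the knockout its change was then 0.485 and did not pass (adjusted p = 0.129). Gabpa, an ETS factor, fell by 0.97 and 0.61. Yy1 was lower in the knockout by 0.47 with vehicle and by 0.70 with IFNγ. Of 82 cytosolic ribosomal proteins, 72 fell and 2 rose in wild-type cells (median -0.900), whereas 39 fell in the knockout (median -0.371), and 12 had a higher response in the knockout by the test of the difference. Of the 78 mitochondrial ribosomal genes, 1 passed that test, with a lower response in the knockout, and the medians were -0.407 and -0.335. In batches 1, 2 and 3, the median difference of responses was 0.362, -0.097 and -0.598 for the 78. For the cytosolic genes it was 0.522, 0.538 and 0.287. How the 78 changed without the IFNγ libraries of batches 2 and 3 is given above, and the cytosolic genes were not counted without them. Of 77 nuclear genes of the respiratory chain and ATP synthase, 34 fell and 3 rose in wild-type cells (median -0.266) and 30 fell in the knockout (median -0.246).

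The differences between the lines were also set against the genes' places in the genome. For each of the 78 genes, the median knockout difference of up to 10 tested genes on each side, in GRCm38 gene order and leaving out the 78, was paired with the gene's own. Under vehicle, the 2 had a Pearson's r of 0.655 (Spearman's rho 0.679) over the 78 genes, and under IFNγ 0.574 (0.55). For the IFNγ responses, r was -0.032 in wild-type and 0.008 in knockout cells. The points share libraries and, where genes lie close together, neighbours. This measure was chosen after the values were seen, and no test was made.

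Some members differed much as their neighbours did and others did not. Under vehicle, Mrpl15 differed by 0.68 and its neighbours by a median of 0.89, and Mrpl50 by 0.63 and its neighbours by 0.70. Mrps27, a mitochondria-specific small-subunit protein, differed by 0.48 and its neighbours by 0.48. Mrpl3 differed by -0.62 and its neighbours by -0.75, and Mrpl11 by -0.66 and its neighbours by -0.45. On chromosome 13, all 5 members were above 0 and 3 were called higher, with a median of 0.482 against 0.383 over 527 other tested genes there. On chromosome 19, none of 5 was above 0 and 2 were called lower, with a median of -0.084 against -0.382 over 491 other genes. Mrpl13, the only member on chromosome 15, differed by 0.98 while its neighbours had a median of 0.17 and the 521 other tested genes of that chromosome 0.067. Mrpl52 differed by -0.85 with neighbours at 0.08, and Mrps30 by 0.62 with neighbours at 0.12. Under IFNγ the neighbours of Mrpl13 were at 0.10 and those of Mrpl52 at 0.07, far from the genes' own 1.09 and -0.49. The neighbours of Mrps30 were at 0.36 under IFNγ, against its own 0.81, and chromosome 13 as a whole was above 0 under vehicle, so part of its difference was also seen around it.

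**Figure D5:**
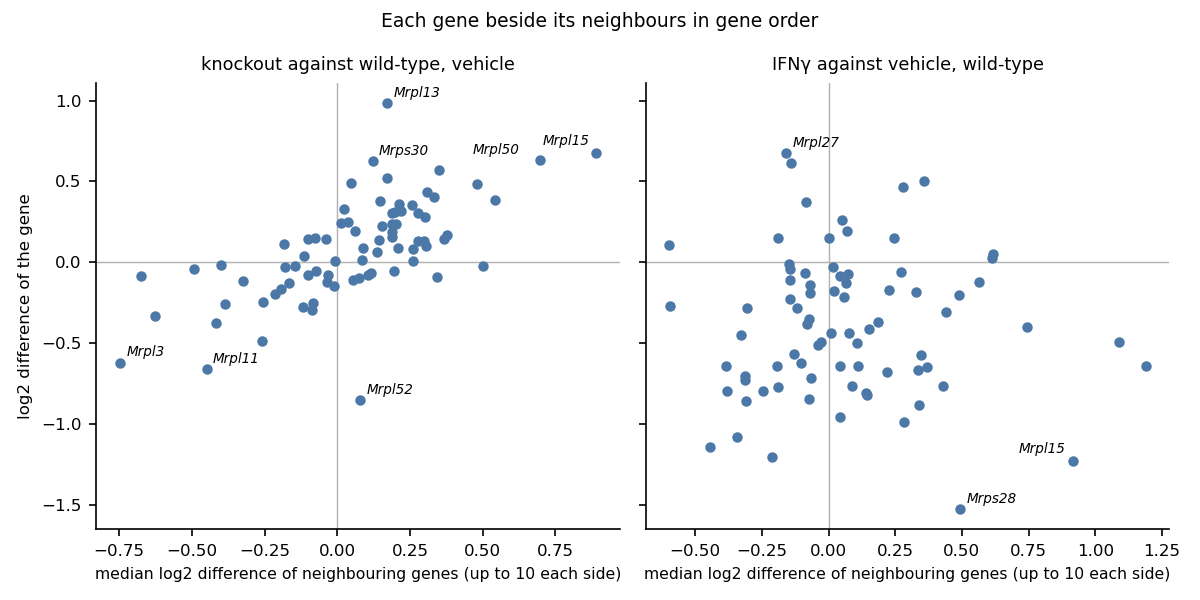
Each point is 1 of the 78 genes, with its own log2 difference on the vertical axis and the median of up to 10 tested genes on each side on the horizontal axis, for the knockout difference and the IFNγ response. For the knockout difference under vehicle the points rise together (r = 0.655), with Mrpl13 far above and Mrpl52 far below the rest; for the wild-type IFNγ response they do not (r = -0.032).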

How the data were processed

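Per the submitters' processing notes, reads were handled with FastQC, Trim Galore, STAR and DESeq2 (versions not given) on GRCm39; neither the counting tool nor its strand setting is given in the sources used here. The deposited table holds whole-number read counts per gene, not normalized, for 20 libraries. The members, the other gene lists and the tests were chosen with earlier results of these data known.

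Counts were filtered with filterByExpr (13755 genes left, with the 78 members all among them), scaled by TMM and fitted in edgeR 4.0.16 (limma 3.58.1, R 4.3.3) with a robust quasi-likelihood fit on group and batch over all 20 libraries, leaving 14 residual degrees of freedom. Benjamini-Hochberg adjusted p under 0.05 over all tested genes is a call. Differences within a batch are differences of mean log2 CPM. DESeq2 1.42.0 was an alternative, beside other scalings, no filter, no batch term, the replicate number as a block, single batches and leaving out each library. The fit was tested on simulated data.

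Symbols, principal transcript lengths and overlaps come from GENCODE on GRCm38 by gene ID (51948 of 56941 IDs had a symbol); IDs without one took 0.482% of counts. Promoters come from RefSeq on GRCm38.p6. Tables and figures used Python 3.11.15, pandas 2.3.3 and matplotlib 3.10.9.

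Genes picked for values are the 3 largest called rises and falls per comparison, and the 3 highest and 2 lowest by mean CPM. Also picked are up to 2 called against the majority, Rgs10, and a panel of Mrpl12, Mrpl58, Mrps12, Mrps18a, Mrps18b, Mrps18c, Mrps30 and Mrps36. Not every library is printed for each of them. Mrpl58, Mrps12, Mrps18a, Mrps18b and Mrps18c are given as group means ± SD, and some others in part of the groups. Genes named from each other list were taken from the up to 2 called genes each way with the smallest p. Not all of these are named, and Esrra and Mxi1 are among those left out. Mrps27, Mrps22 and the neighbour measure were chosen after their values were seen. No 2 replicates agreed within sampling noise: chi-square per degree of freedom was at least 3.69.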

Additional observations from a re-analysis of the deposited data

Results flagged for a closer look

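Values far from the other 4 of their group, by Dixon's criterion, were found in 8 of 112 gene and group combinations; chance alone marks about 1 in 20. Of the 8, 5 lay in IFNγ libraries of batch 2. In wild-type IFNγ replicate 4, Mrps36 was at 27.44 CPM and Rgs10 at 49.97 CPM, both above the rest of the group. In knockout IFNγ replicate 4, Mrpl33 was at 8.97 CPM, Mrpl52 at 87.48 CPM and Rgs10 at 50.52 CPM, all above the rest. Among knockout vehicle libraries, Mrps21 was high at 62.91 CPM and Mrps28 low at 26.09 CPM in replicate 4, and Mrps12 was high at 46.62 CPM in replicate 5.

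The difference between the IFNγ responses of the 2 lines passed the test for 1 of the 78 genes, Mrps21, at -0.71 on the log2 scale (knockout minus wild-type).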

How the results depend on the processing

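Batches 2 and 3 have 1 library a group each, and fits on these batches alone can make few calls by construction. The share of all tested genes called is not given for the settings in this paragraph. Their counts of calls therefore cannot be set against a background share. In the order wild-type IFNγ, knockout IFNγ, knockout under vehicle, knockout under IFNγ and difference of responses, leaving out each library gave 4 to 5, 1 to 2, 10 to 15, 16 to 28 and 0 to 2 genes called higher. It gave 41 to 46, 30 to 42, 4 to 6, 5 to 11 and 0 to 1 called lower, and medians of -0.475 to -0.378, -0.387 to -0.279, 0.03 to 0.123, 0.092 to 0.219 and 0.024 to 0.188. With plain library totals, wild-type IFNγ had 1 higher and a median of -0.631, and 3 were lower in the knockout under each treatment; the all-gene medians then went from 0.012 to -0.209 (wild-type IFNγ), from -0.016 to -0.163 (knockout IFNγ) and from 0.006 to 0.13 (knockout under IFNγ), and the share of all calls that were higher went from 49.2% to 36.7%, 49.5% to 38.5% and 51.4% to 62.3%. Without a filter, knockout IFNγ had 2 higher, the knockout under IFNγ 5 lower and the difference of responses 1 higher. DESeq2 gave 2 higher for knockout IFNγ, 8 lower in the knockout under vehicle and 1 higher for the difference. Without the batch term, 23 fell with IFNγ in the knockout, 5 were higher and 2 lower in the knockout under vehicle, 5 lower under IFNγ, and 0 passed for a lower response.

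In batch 1 alone, 65 fell in wild-type cells, 4 rose in the knockout, 24 were lower in the knockout under vehicle, 53 higher under IFNγ (median 0.348), and 51 had a higher response (median 0.412); Mrpl13 (-0.378) and Mrps18b (-0.293) changed sign in wild-type cells, and Mrps2 (0.263) and Mrpl58 (0.242) in the knockout under IFNγ. In batches 2 and 3 alone, 13 fell in wild-type cells (median -0.192) and 22 in the knockout, 1 was higher and 0 lower in the knockout under vehicle, 0 higher and 4 lower under IFNγ (median -0.151), and 0 had a lower response (median -0.436). Leaving out the IFNγ libraries of batches 2 and 3, chosen after seeing the data, gave 2 higher for knockout IFNγ, 26 higher and 10 lower in the knockout under vehicle, 50 higher under IFNγ (median 0.348) and 32 with a higher response (median 0.288); Mrpl13 (-0.348, wild-type IFNγ) and Mrps2 (0.263, knockout under IFNγ) changed sign. The cause of these changes was not tested. For batch 1 alone and for batches 2 and 3 alone, the share of all tested genes called is not given. That share depends on the fit. For higher calls in the knockout under vehicle it was 12.5% with all libraries and 27.3% without the IFNγ libraries of batches 2 and 3. The counts in single batches therefore do not show whether these genes differed from all tested genes.

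The replicate numbers are shared across groups, and deviations of same-numbered libraries in batch 1 correlated between -0.042 and 0.04. With 3 libraries a group in that batch, this cannot show whether same-numbered libraries were grown or prepared together. With the replicate number as a block, 47 of 47, 35 of 40, 17 of 18, 26 of 28 and 1 of 1 calls were kept, in the order above.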
